A study of Rattus norvegicus with 12 samples.

Results

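Hyaluronan is the long, unbranched sugar polymer that fills the cartilage matrix with water. The genes described here make it, bind it and break it down in cultured fetal rat metatarsals, the foot bones whose cartilage templates keep growing in culture. They are Has1, Has2, Has3, Ugdh, Cd44, Hyal1, Hyal2, Hapln1, Vcan and Tnfaip6. The set was chosen by symbol as a functional family, with earlier results of these data known. These are 10 of the 30045 genes in the count files. Of the 10, 9 had at least 60 counts in at least 2 libraries and were tested among 12602 genes. The tenth, Tnfaip6, reached 60 counts in 1 library only and is given by its counts.

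Hyaluronan is made at the plasma membrane by hyaluronan synthases, which join UDP-glucuronic acid and UDP-N-acetylglucosamine and push the growing chain out of the cell. In cartilage the chain is the backbone on which aggrecan and versican assemble, each held in place by link protein, and cells keep a coat of it through the receptor CD44. Hyaluronidases and the hyaluronan depolymerase CEMIP cut the chain, and lysosomal exoglycosidases finish its degradation.

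RNA was sequenced from metatarsals of Sprague Dawley rats at embryonic day 19, after 72 h of culture. The medium, shared by all groups, was serum-free by its listed contents and held bovine serum albumin, β-glycerophosphate, ascorbic acid and gentamicin. Control bones, titled untreated in the labels, received the ethanol vehicle according to the treatment protocol, the dexamethasone group received 1 µM of this synthetic glucocorticoid, the LiCl group received 10 mM of the lithium salt together with the vehicle, and the dexamethasone + LiCl group received both agents at these concentrations. Each group had 3 libraries, called pools here because each came from a pool of whole bones, in which cartilage, perichondrium and other tissue were not separated. The number that the labels give a pool is not tied to an animal in them. In such bulk RNA, fewer cells of a type and less RNA per cell cannot be told apart.

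Total counts ranged from 9055581 to 21953446 per library, and the dexamethasone libraries (9263078 to 11685463) all lay below the LiCl libraries (13866588 to 20644093). Levels are given in CPM, each count relative to the library's total after TMM scaling. They are not divided by transcript length, so that they compare 1 gene between groups and not 2 genes with each other. Throughout, statements that the pools of groups do not overlap, or that all lie above or below others, describe the pools. Without the share of all tested genes that separate in this way, they add nothing to the tests. The 7 chondrocyte markers, among them Col2a1, Col9a1 and Sox9, summed to between 56470 and 89930 CPM in the 12 libraries, so the bones carried the markers of cartilage. Perichondrium and fibroblast markers summed to between 15760 and 25670 CPM. Replicate libraries differed by more than counting noise in every group. Dexamethasone pool 2 stood apart from its group, at a chi-square per degree of freedom of 19.04 and 21.06 from the other dexamethasone pools, which differed from each other by 4.066. Control pool 2 lay as far from its group, at 20.38 and 20.67, against 11.58 between the other control pools. Where leaving out either pool changes a call of a hyaluronan gene, the value without it is given beside the result.

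Among the 10 genes, Cd44 changed most. Its level went from a mean of 18.5 CPM in control to 85.1 CPM with both drugs, and it passed the test in each of the 4 comparisons between groups. The hyaluronan synthase gene Has1 was higher in the LiCl groups than in control. The link protein gene Hapln1 was higher in the dexamethasone groups than in control, and the versican gene Vcan was lower with both drugs than in control or with dexamethasone alone. Has2, Has3, Ugdh, Hyal1 and Hyal2 did not pass in any comparison. All tests were two-sided quasi-likelihood F-tests of edgeR over the 12 libraries, n = 3 pools per group, and a gene passed at a Benjamini-Hochberg adjusted p under 0.05 over the 12602 genes.

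**Figure D1:**
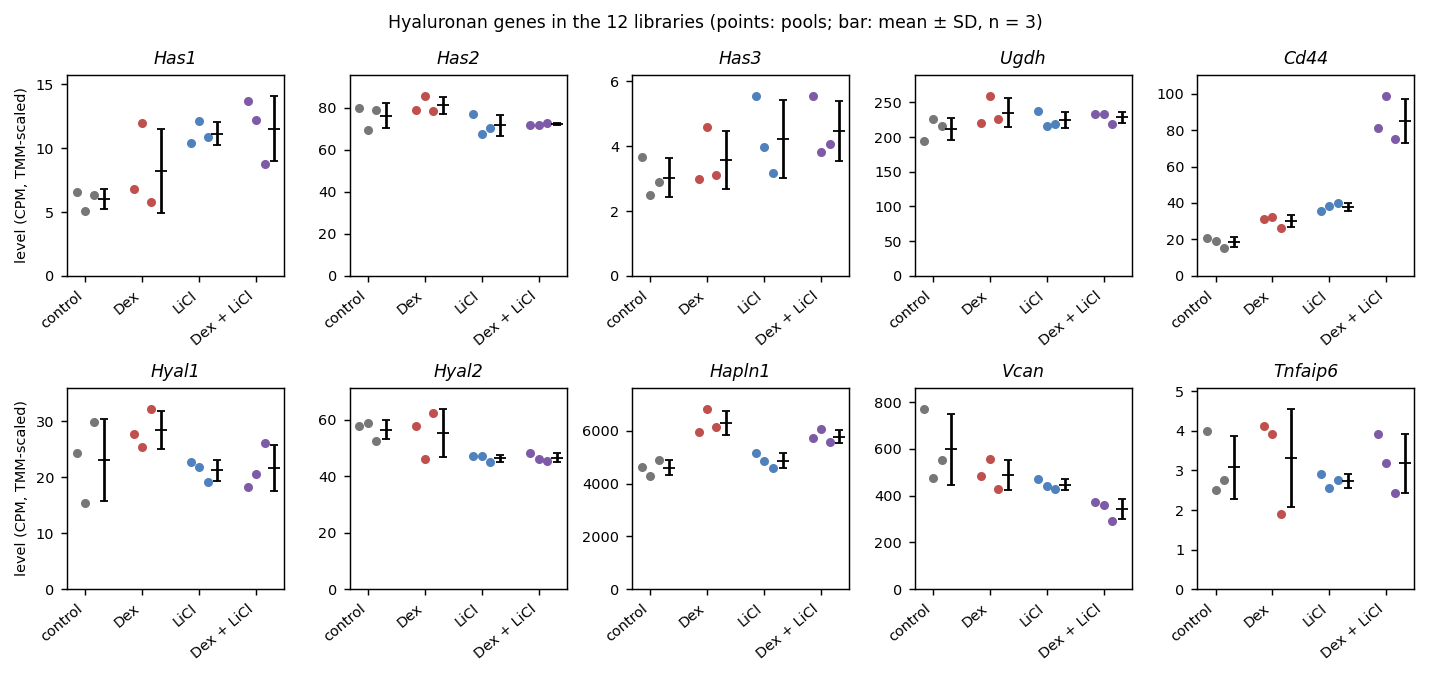
Level of each of the 10 hyaluronan genes in CPM (vertical axes, each gene on its own range from 0) in the 3 pools of control, dexamethasone (Dex), LiCl and dexamethasone + LiCl (points), with the mean ± SD beside them. The Cd44 pools with both drugs sit between 75.2 and 98.7 CPM, above all other pools, which reach 39.9 CPM at most.

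With dexamethasone against control, 2 of the 9 tested genes passed, both higher (Cd44 and Hapln1), where 10.9% of all tested genes passed. The median log2 change of the 9 genes was 0.23, and that of all tested genes was 0.0021. With LiCl against control, 2 of 9 passed, both higher (Cd44 and Has1), beside 10.6% of all tested genes, and the medians were 0.081 and 0.00092. When LiCl was added to dexamethasone, 1 of 9 passed as higher (Cd44) and 1 as lower (Vcan), beside 8.60% of all tested genes, and the medians were -0.12 and -0.0042. With both drugs against control, 3 of 9 passed as higher (Cd44, Has1 and Hapln1) and 1 as lower (Vcan), beside 22.6% of all tested genes, with medians of 0.11 and 0.0085. The 3 comparisons with control share the control pools, so their results are not independent of each other. With a fold above 2 required as well, Cd44 was the 1 of 9 left in each comparison with LiCl and 0 of 9 were left with dexamethasone alone, where 2 of 9 had an unadjusted p under 0.05. The shares of all tested genes under that rule were 2.84%, 1.58%, 1.36% and 4.37% in the same order. The counts come from few genes, and no enrichment was tested.

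**Figure D2:**
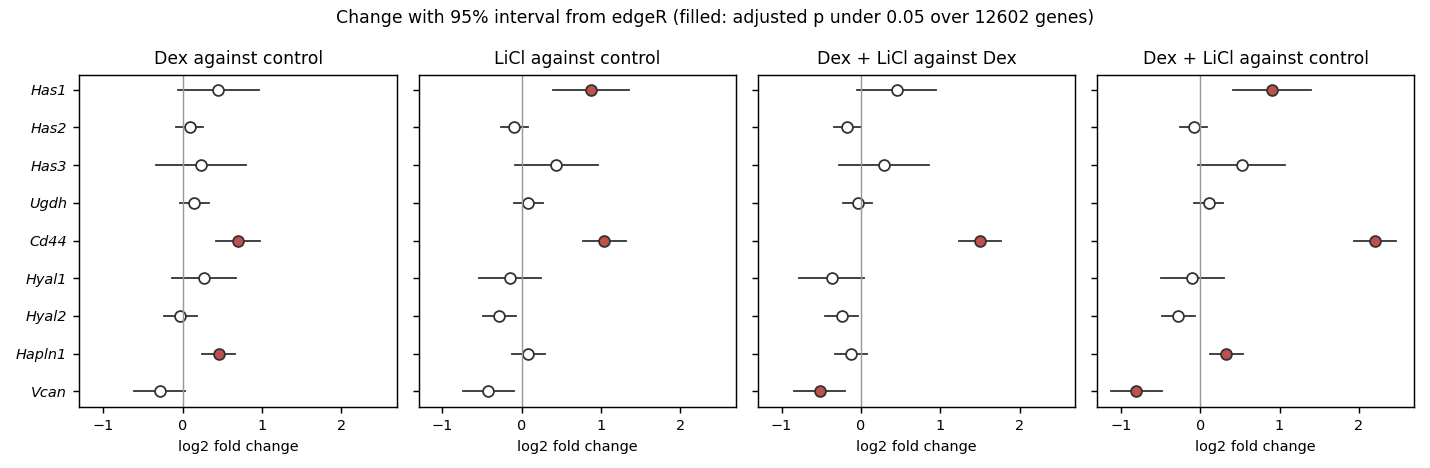
Log2 fold change (horizontal axis) of the 9 tested hyaluronan genes in 4 comparisons, from edgeR, with 95% confidence intervals as lines. Filled points have an adjusted p under 0.05, and Cd44 is the gene filled in all 4 panels, with its largest change, 2.20, for both drugs against control.

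Promoter sequences are shown for the 4 genes that passed a test, since their changes differ in drug and direction. They are the 250 bases before the annotated start, from RefSeq on the rat assembly GRCr8, which held an entry for 8 of the 10 genes. Has2 and Has3 had none in the table used. The windows are chr3:109699425-109699674 (minus strand) for Cd44, chr1:67378445-67378694 (minus) for Has1, chr2:22366717-22366966 (plus) for Hapln1 and chr2:22595956-22596205 (minus) for the first of the 2 Vcan starts. Each is written 5′ to 3′ on the gene's strand and ends just before the start. Capitals mark the core of the TCF/LEF motif, the site read by the transcription factors of Wnt/β-catenin signaling, which lithium is known to activate through inhibition of GSK3.
Cd44: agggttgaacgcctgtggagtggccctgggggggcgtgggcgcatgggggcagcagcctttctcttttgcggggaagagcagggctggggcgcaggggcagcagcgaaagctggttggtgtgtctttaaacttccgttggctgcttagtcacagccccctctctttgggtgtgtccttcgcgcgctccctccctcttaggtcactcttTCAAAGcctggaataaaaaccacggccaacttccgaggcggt
Has1: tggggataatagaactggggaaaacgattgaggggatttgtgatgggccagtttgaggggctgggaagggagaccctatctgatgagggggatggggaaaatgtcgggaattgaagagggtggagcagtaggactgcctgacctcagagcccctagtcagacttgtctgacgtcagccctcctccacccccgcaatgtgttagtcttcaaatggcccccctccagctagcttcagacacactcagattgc
Hapln1: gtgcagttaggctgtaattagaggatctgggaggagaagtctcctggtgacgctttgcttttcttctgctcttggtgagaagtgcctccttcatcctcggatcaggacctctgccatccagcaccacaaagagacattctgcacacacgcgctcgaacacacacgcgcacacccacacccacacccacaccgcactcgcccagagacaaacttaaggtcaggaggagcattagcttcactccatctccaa
Vcan: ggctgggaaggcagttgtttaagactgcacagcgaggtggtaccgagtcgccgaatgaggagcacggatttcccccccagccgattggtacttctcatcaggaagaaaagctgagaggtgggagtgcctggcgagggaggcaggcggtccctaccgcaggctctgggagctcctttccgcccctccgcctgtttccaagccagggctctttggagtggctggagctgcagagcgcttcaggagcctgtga
Both strands were searched for the TCF/LEF core CTTTGA and for TGTTCT, part of the glucocorticoid receptor element. Of the 8 promoters, that of Cd44 alone held the TCF/LEF core, as its reverse complement TCAAAG, 42 bases before the start. The core was in 13.9% of all 33469 rat promoter windows of this length, so 1 of 8 is near that background. TGTTCT was in none of the 8 promoters and in 17.5% of all windows. Whether the match bears on the Cd44 change was not tested. A match is a description of the letters and not of binding, and both motifs were chosen after the expression values were seen. The Cd44 window held 60.8% G and C, against a median of 51.2% over all windows.

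CD44 is the main cell surface receptor for hyaluronan. It anchors the pericellular coat, takes up the polymer for degradation and passes signals to the cytoskeleton. Its level was 20.9, 18.95 and 15.6 CPM in the control pools and 31.1, 32.5 and 26.1 CPM with dexamethasone. It was 35.7, 38.2 and 39.9 CPM with LiCl and 81.4, 98.7 and 75.2 CPM with both drugs. In this order of the groups the pools of neighbouring groups did not overlap. Dexamethasone raised Cd44 1.63-fold (log2 change 0.70, SE 0.13, adjusted p = 0.00209), and LiCl raised it 2.06-fold (1.04, SE 0.13, adjusted p = 1.04e-04). Added to dexamethasone, LiCl raised it 2.84-fold (1.503, SE 0.13, adjusted p = 4.75e-06), and both drugs together raised it 4.61-fold over control (2.20, SE 0.13, adjusted p = 1.25e-08). These 4 calls were kept under each of the 18 alternatives run for each comparison apart from the fold minimum, with adjusted p of at most 0.0130.

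The factorial design asks whether the effects of both drugs add up. For Cd44 the sum of the 2 single changes was 1.74 on the log2 scale, and the change with both drugs was 2.20. The difference of 0.46 (SE 0.18, 95% interval 0.08 to 0.84) had an unadjusted p of 0.0197 and an adjusted p of 0.818, so it did not pass. For the other 8 genes the interval of this interaction included 0. None of the 9 passed the interaction test with edgeR or with the Wald test of DESeq2, 1 of 9 (Cd44) had an unadjusted p under 0.05 with edgeR, and 0.00794% of all tested genes passed.

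**Figure D3:**
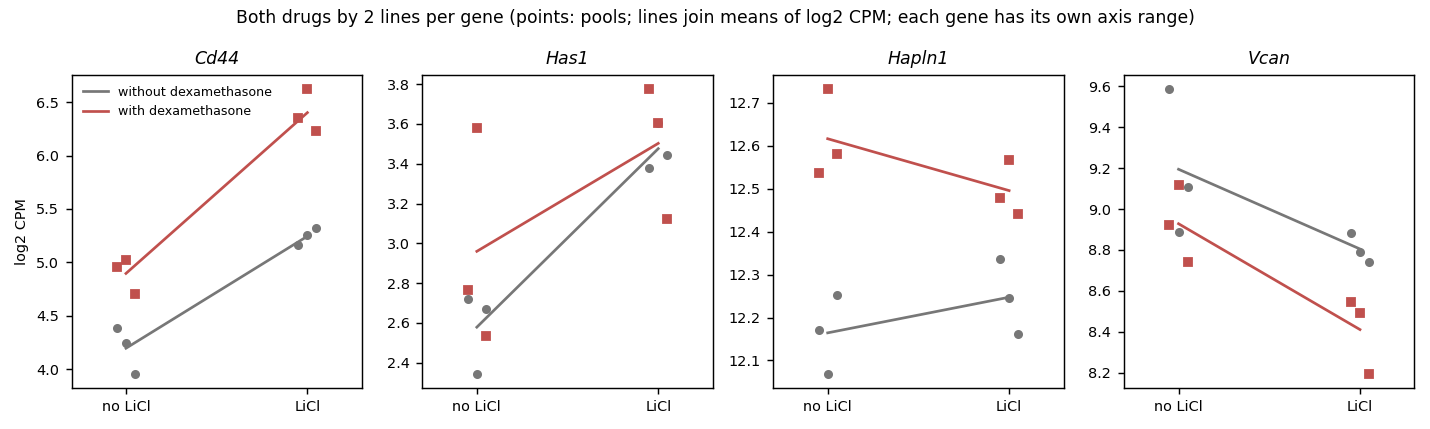
Level in log2 CPM (vertical axes, each gene on its own range) of Cd44, Has1, Hapln1 and Vcan without and with LiCl (horizontal axis), in bones without dexamethasone (grey circles) and with it (red squares). Points are pools and lines join the group means, and for Cd44 the line with dexamethasone rises more steeply than the line without, a difference of 0.46 that did not pass the interaction test.

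Cell type markers moved in the same comparisons. The 5 skeletal muscle markers (Acta1, Myl1, Tnni1, Myh3 and Myog) summed to between 3.56 and 6.45 CPM in control, 16.2 and 34.4 with dexamethasone, 24.0 and 33.2 with LiCl, and 103 and 129 with both drugs. The 4 of them that were tested all passed as higher in the 3 comparisons with LiCl, and 1 of 4 did with dexamethasone alone. As for Cd44, their sum was lowest in control and highest with both drugs, while the ranges with dexamethasone and with LiCl overlapped. Their part in the Cd44 and Has1 results was not tested. The 7 leukocyte and macrophage markers, whose cells also carry CD44, summed to between 77.4 and 111 CPM in control, 131 and 152 with dexamethasone, 67.6 and 70.9 with LiCl, and 100 and 121 with both drugs, so with LiCl alone their sum lay below that of every control pool. The sum hides members that moved in both directions, since 3 of 7 passed as higher and 2 as lower with dexamethasone, and 2 as higher and 4 as lower with both drugs against control. The endothelial markers fell with dexamethasone, where 6 of 7 passed as lower, and summed to between 81.1 and 86.1 CPM there against 202 and 225 CPM in control.

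Other marker lists moved as well. The osteoclast markers summed to between 159 and 178 CPM in control and between 74.8 and 126 CPM in the treated groups, and 3 of 3 tested passed as lower with dexamethasone, with LiCl and with both drugs against control. The hypertrophic chondrocyte markers summed to between 1630 and 1844 CPM with LiCl alone and between 3162 and 3501 CPM in control, and 2 of 4 passed as lower. With both drugs their sum was 2688 to 3420 CPM, which overlapped control, and 1 of 4 passed as lower against control. With dexamethasone it was 2469 to 4474 CPM. The epidermis markers (Krt5, Krt14, Ppl and Evpl) summed to between 5.46 and 8.13 CPM in control, 23.4 and 27.3 CPM with dexamethasone and 18.6 and 21.4 CPM with both drugs. The keratins Krt5 and Krt14 had no counts in control, so the sum there came from Ppl and Evpl. Krt14 had none with dexamethasone, and Krt5 had none with LiCl or with both drugs. Only 2 of these 4 markers were tested. The adipocyte markers summed to between 3.27 and 5.69 CPM with LiCl and 18.2 and 31.8 CPM in control. With dexamethasone their sum was 25.9 to 43.3 CPM and with both drugs 22.6 to 34.05 CPM, so both ranges overlapped control. Of the 2 tested, 2 passed as lower with LiCl, 1 with dexamethasone and 1 with both drugs, each against control. For the marker counts of this and the preceding paragraph, the shares of all tested genes are the background. With dexamethasone, with LiCl and with both drugs against control, 5.45%, 4.71% and 10.8% of all tested genes passed as higher. As lower, 5.49%, 5.90% and 11.8% passed. When LiCl was added to dexamethasone, 3.82% passed as higher. The part of these marker lists in the results of the hyaluronan genes was not tested.

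Of the other genes that act with CD44, the linkers to actin ezrin, moesin and radixin (Ezr, Msn and Rdx) and the sheddases MMP14, ADAM10 and ADAM17 made a list of 6, all tested. Only Mmp14, a membrane metalloprotease that cuts CD44 and collagen, passed, with dexamethasone and with both drugs against control. It was 677, 641 and 591 CPM in control, 492, 407 and 511 with dexamethasone, 601, 524 and 561 with LiCl, and 447, 417 and 466 with both drugs. All 6 pools with dexamethasone lay below all control pools. The log2 change was -0.44 (SE 0.10, adjusted p = 0.00729) with dexamethasone and -0.52 (SE 0.10, adjusted p = 0.00110) with both drugs.

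Has1 is 1 of 3 synthases. Its level was 6.59, 5.09 and 6.37 CPM in control, 6.80, 11.9 and 5.80 with dexamethasone, 10.4, 12.2 and 10.9 with LiCl, and 13.7, 12.2 and 8.72 with both drugs. Every pool with LiCl, alone or with dexamethasone, lay above every control pool, while the dexamethasone pools overlapped those of control and of LiCl, with pool 2 at the LiCl level. These levels rest on 52 to 233 counts per library. LiCl raised Has1 1.83-fold over control (log2 change 0.87, SE 0.22, adjusted p = 0.0213), and both drugs raised it 1.87-fold (0.90, SE 0.23, adjusted p = 0.0106). The first call was lost without control pool 2, LiCl pool 2 or LiCl pool 3 (adjusted p 0.0597, 0.0801 and 0.0603), and the second without dexamethasone + LiCl pool 1 (adjusted p = 0.0541). Against dexamethasone alone, adding LiCl gave a log2 change of 0.45 (SE 0.23, adjusted p = 0.271), and without dexamethasone pool 2 it gave 0.86 (adjusted p = 0.0220). Dexamethasone against control gave 0.45 (SE 0.24, adjusted p = 0.270), and 0.048 (adjusted p = 0.942) without that pool.

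Has2, the synthase that builds most embryonic hyaluronan in the mouse, held nearly level. It was 79.9, 69.2 and 79.0 CPM in control, 79.0, 85.4 and 78.6 with dexamethasone, 77.0, 67.4 and 70.1 with LiCl, and 71.8, 71.6 and 72.5 with both drugs. Ordered by their means, neighbouring groups overlapped in their pools. The 95% intervals of its log2 change were -0.08 to 0.26 with dexamethasone, -0.26 to 0.07 with LiCl and -0.25 to 0.09 with both drugs against control, which is narrow beside the change of Cd44. Of the 4 comparisons tested, the largest difference was between both drugs and dexamethasone (log2 change -0.17, SE 0.08, adjusted p = 0.221), which did not pass.

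Has3 was measured from 27 to 82 counts per library. Its level was 3.67, 2.50 and 2.91 CPM in control, 2.99, 4.59 and 3.12 with dexamethasone, 5.55, 3.97 and 3.18 with LiCl, and 5.55, 3.81 and 4.07 with both drugs. With both drugs against control its log2 change was 0.52 (SE 0.26, 95% interval -0.02 to 1.07, adjusted p = 0.162), which did not pass. Ugdh, whose enzyme makes the UDP-glucuronic acid that the synthases use, had means of 212 ± 16.0 CPM in control, 235 ± 20.9 with dexamethasone, 224 ± 11.5 with LiCl and 229 ± 8.29 with both drugs (SD, n = 3). Its pools overlapped between all neighbouring groups, and none of its log2 changes against control exceeded 0.15. RefSeq places another gene over Ugdh (Rplp2l3) and a long noncoding RNA over Has2 (LOC108351495), so their counts are uncertain where reads of these genes overlap.

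Precursor supply beyond Ugdh was followed in 8 genes, all tested, of the routes to UDP-glucose and UDP-N-acetylglucosamine. When LiCl was added to dexamethasone, 2 of 8 passed, both higher, and in LiCl against control 1 of 8 did (Gfpt2, chosen after its value was seen). Of all tested genes, 8.60% and 10.6% passed in these comparisons, and 1 of 8 is near that background. Pgm1, whose enzyme interconverts glucose phosphates, was 45.5, 46.4 and 32.3 CPM with dexamethasone and 64.8, 65.5 and 68.2 CPM with both drugs. The groups did not overlap, and the log2 change was 0.67 (SE 0.15, adjusted p = 0.0120). The second gene, Pgm3, which acts on N-acetylglucosamine phosphate and was likewise chosen after its value was seen, had a log2 change of 0.37 (SE 0.10, adjusted p = 0.0324).

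HYAL1 and HYAL2 are the main hyaluronidases of somatic tissue. HYAL2 is tethered at the cell surface, where it starts the breakdown of long chains, and HYAL1 works in the lysosome on the fragments. The level of Hyal2 was 57.8, 58.9 and 52.6 CPM in control, 57.7, 46.0 and 62.3 with dexamethasone, 47.2, 47.1 and 45.0 with LiCl, and 48.4, 46.2 and 45.2 with both drugs. All 6 pools with LiCl lay below the control pools, and they lay in a narrow band. This order describes the pools, and without the share of all tested genes that separate in this way it adds nothing to the test. The log2 change was -0.28 (SE 0.10) both with LiCl (adjusted p = 0.0776) and with both drugs (adjusted p = 0.0553), so it passed in neither comparison. With the replicate number as a block, the difference between both drugs and control passed (log2 change -0.27, adjusted p = 0.0464). It also passed with DESeq2 (adjusted p = 0.0442), in a fit of only the groups compared (0.0459) and without dexamethasone pool 3 (0.0391). In 13 of the 18 alternatives it did not pass.

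Dexamethasone pool 2, at 46.0 CPM, lay within the LiCl range of Hyal2. Without it, Hyal2 passed as lower with LiCl (adjusted p = 0.0235), with both drugs against control (0.0169) and with both drugs against dexamethasone, where the log2 change was -0.36 (adjusted p = 0.0181) in place of -0.24 (adjusted p = 0.154). In the other 17 of 18 alternatives, Hyal2 passed neither with LiCl against control nor with both drugs against dexamethasone.

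The level of Hyal1 was 24.3, 15.4 and 29.8 CPM in control, 27.7, 25.4 and 32.1 with dexamethasone, 22.7, 21.8 and 19.1 with LiCl, and 18.3, 20.6 and 26.2 with both drugs. The control pools alone spanned most of this range, and no comparison passed (adjusted p from 0.274 to 0.753). In RefSeq, Hyal1 overlaps Naa80 and Hyal3 and neighbours Hyal2, so its counts are uncertain where reads of these genes overlap.

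Other genes of turnover made a list of 9, of which 6 were tested. With both drugs against control, 3 of 6 passed, all lower (Cemip, Gusb and Hexa, chosen after their values were seen), and with dexamethasone alone 1 of 6 did (Cemip). Of all tested genes, 11.8% and 5.49% passed as lower in these comparisons. Cemip, whose protein drives the depolymerization of hyaluronan, was 42.6, 26.7 and 48.7 CPM in control, 18.3, 15.9 and 27.7 with dexamethasone, 50.7, 41.1 and 40.3 with LiCl, and 19.8, 10.7 and 18.6 with both drugs. The pools with both drugs all lay below the control pools, and dexamethasone pool 3 overlapped control pool 2. The log2 change was -0.96 (SE 0.24, adjusted p = 0.0157) with dexamethasone, -1.28 (SE 0.24, adjusted p = 0.00121) with both drugs and 0.14 (SE 0.22, adjusted p = 0.724) with LiCl. Gusb and Hexa, lysosomal exoglycosidases, had log2 changes of -0.32 (SE 0.09, adjusted p = 0.0159) and -0.45 (SE 0.11, adjusted p = 0.00737) with both drugs. Hyal4, Hyal5 and Spam1 did not reach the count minimum.

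HAPLN1, the cartilage link protein, binds hyaluronan and aggrecan at once and locks the aggregate. Hapln1 was 4609, 4298 and 4881 CPM in control, 5939, 6808 and 6126 with dexamethasone, 5171, 4853 and 4579 with LiCl, and 5709, 6067 and 5562 with both drugs. Every pool with dexamethasone, alone or with LiCl, lay above every pool without it. Dexamethasone raised Hapln1 1.37-fold (log2 change 0.45, SE 0.10, adjusted p = 0.00522) and both drugs raised it 1.26-fold over control (0.33, SE 0.10, adjusted p = 0.0214). The log2 change was 0.08 (SE 0.10, adjusted p = 0.621) with LiCl alone and -0.12 (SE 0.10, adjusted p = 0.494) when LiCl was added to dexamethasone. The summed chondrocyte markers overlapped between dexamethasone (56470 to 83810 CPM) and control (75640 to 89930 CPM). In a fit of only the groups compared, Hapln1 did not pass with dexamethasone (adjusted p = 0.0515) or with both drugs (adjusted p = 0.0614). The call for both drugs was also lost without control pool 2 (adjusted p = 0.0567), dexamethasone + LiCl pool 1 (0.0513) or pool 2 (0.0851).

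Versican, encoded by Vcan, is a large proteoglycan that binds hyaluronan in young and soft matrix and gives way to aggrecan as cartilage matures. Vcan was 770, 474 and 552 CPM in control, 485, 556 and 429 with dexamethasone, 472, 443 and 429 with LiCl, and 373, 360 and 293 with both drugs. Every pool with both drugs lay below every other pool, and the control pools differed most among themselves. Both drugs lowered Vcan 1.75-fold against control (log2 change -0.81, SE 0.15, adjusted p = 0.00116). Against dexamethasone alone it was 1.43-fold lower (-0.52, SE 0.15, adjusted p = 0.0451), a call lost without any 1 of 10 libraries (adjusted p 0.0504 to 0.169, and 0.130 without dexamethasone pool 2) and kept only without control pool 1 or control pool 2.

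With LiCl alone against control, the log2 change of Vcan was -0.42 (SE 0.15, adjusted p = 0.0903). This change did not pass in the main fit or in 14 of the 18 alternatives. It passed with the replicate number as a block (-0.41, adjusted p = 0.0366), with DESeq2 (adjusted p = 0.0498), with no count filter (adjusted p = 0.00625) and without control pool 2 (-0.56, adjusted p = 0.0210). Without control pool 1, the highest of all pools, the log2 change was -0.20 (adjusted p = 0.356), and in a fit of only the groups compared the adjusted p was 0.122. With dexamethasone the log2 change was -0.29 (SE 0.15, adjusted p = 0.259) and the pools overlapped. Without control pool 1 it was -0.065. The perichondrium and fibroblast markers, made by cells that also make versican, summed to between 20010 and 25670 CPM in control, 15990 and 21380 with dexamethasone, 17380 and 18900 with LiCl, and 15760 and 18250 with both drugs. Of these 6 markers, 1 passed as higher and 1 as lower with both drugs against control, and their part in the Vcan result was not tested.

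Vcan and Hapln1 are next to each other on chromosome 2. Their order over the groups was not the same, since dexamethasone raised Hapln1 while the lowest Vcan levels were those with both drugs.

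TSG-6, encoded by Tnfaip6, moves heavy chains of the inter-α-inhibitor onto hyaluronan and is best known from inflammation and ovulation. Tnfaip6 had 89, 27 and 55 counts in control, 40, 47 and 17 with dexamethasone, 41, 49 and 57 with LiCl, and 36, 35 and 42 with both drugs. In CPM the group means lay between 2.74 and 3.31 and the groups overlapped. With the more permissive filter of edgeR, which kept 15274 genes, its adjusted p was 0.693 to 0.981 over the comparisons, and at this depth no difference was detectable.

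Among other binding proteins, 13 of 14 listed genes were in the files and 5 were tested. Aggrecan (Acan), the proteoglycan that Hapln1 locks to hyaluronan, was among them and passed in no comparison. Ptx3, a pentraxin that crosslinks hyaluronan through TSG-6, was the 1 that passed. It was 13.7, 15.7 and 10.5 CPM in control, 5.76, 7.57 and 6.99 with LiCl, 13.9, 11.9 and 15.1 with dexamethasone, and 8.59, 8.45 and 9.25 with both drugs. Every pool with LiCl lay below every pool without it. LiCl lowered Ptx3 by a log2 change of -0.95 (SE 0.16, adjusted p = 0.00141), and both drugs together by -0.59 (SE 0.16, adjusted p = 0.0160).

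Of the 5 other hyaluronan receptors listed, 3 were tested (Hmmr, Stab1 and Layn). Hmmr, which encodes a hyaluronan receptor that also works at the mitotic spindle and was chosen after its values were seen, had a log2 change of 0.31 (SE 0.09, adjusted p = 0.0337) with dexamethasone, 0.28 (SE 0.09, adjusted p = 0.0480) with LiCl and 0.38 (SE 0.09, adjusted p = 0.00563) with both drugs against control. Layn, which encodes layilin, a small receptor for hyaluronan, was 17.4, 18.95 and 16.3 CPM in control, 19.98, 16.03 and 17.96 with dexamethasone, 11.95, 12.4 and 12.5 with LiCl, and 12.8, 8.90 and 10.8 with both drugs. The pools with LiCl all lay below the pools without it. The log2 change was -0.51 (SE 0.13, adjusted p = 0.0181) with LiCl and -0.73 (SE 0.14, adjusted p = 0.00332) when LiCl was added to dexamethasone, opposite in sign to that of Cd44.

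Stab1 encodes stabilin-1, a scavenger receptor of macrophages and sinusoidal endothelium. It was 54.1, 33.3 and 37.8 CPM in control, 85.2, 85.7 and 74.4 with dexamethasone, 45.7, 36.5 and 38.5 with LiCl, and 61.3, 64.7 and 61.2 with both drugs. The dexamethasone pools lay highest, with a log2 change of 0.96 (SE 0.14, adjusted p = 2.53e-04). Of the 7 leukocyte and macrophage markers, 3 passed as higher and 2 as lower with dexamethasone, and their part in the Stab1 result was not tested.

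Versican is cut by proteases of the ADAMTS family, of which 6 were listed and tested. With dexamethasone against control, 4 of 6 passed, all higher, beside 5.45% of all tested genes that passed as higher. In LiCl against control 1 of 6 passed, as lower, and when LiCl was added to dexamethasone 2 of 6 did, all lower. Of all tested genes, 5.90% and 4.78% passed as lower there. For both drugs against control, 2 of 6 passed as higher and 1 as lower, beside 10.8% and 11.8% of all tested genes. Adamts9 was 37.3, 33.0 and 31.8 CPM in control, 54.0, 49.4 and 54.8 with dexamethasone, 41.2, 35.4 and 43.7 with LiCl, and 59.7, 51.3 and 54.7 with both drugs. All pools with dexamethasone lay above all pools without it, with a log2 change of 0.63 (SE 0.10, adjusted p = 4.75e-04) for the single drug and 0.70 (SE 0.10, adjusted p = 1.03e-04) for both drugs.

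Adamts1 had a like order, with means of 44.4 ± 8.04 CPM in control, 63.0 ± 2.42 with dexamethasone and 68.2 ± 4.90 with both drugs (SD, n = 3), and a log2 change of 0.61 (SE 0.11, adjusted p = 0.00108) for both drugs. Adamts15 moved in both directions. It was 31.99, 29.9 and 30.3 CPM in control, 39.0, 40.5 and 35.0 with dexamethasone, 23.9, 23.7 and 22.6 with LiCl, and 27.8, 31.2 and 27.0 with both drugs. The log2 change was 0.31 (SE 0.09, adjusted p = 0.0310) with dexamethasone, -0.40 (SE 0.09, adjusted p = 0.00933) with LiCl and -0.42 (SE 0.09, adjusted p = 0.00997) when LiCl was added to dexamethasone.

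**Figure D4:**
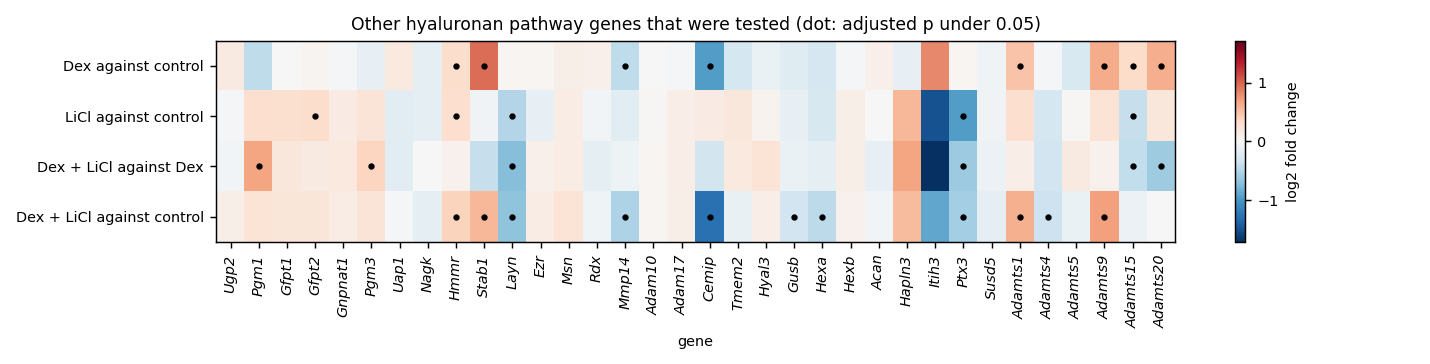
Log2 fold change (color, red higher and blue lower) of the 34 other hyaluronan pathway genes that were tested (columns) in the 4 comparisons (rows), with a dot where the adjusted p was under 0.05. The dots of Stab1, Adamts1 and Adamts9 are red in the rows that compare dexamethasone or both drugs with control, and those of Layn and Ptx3 are blue in the rows with LiCl.

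Over all lists, 48 other hyaluronan pathway genes were followed, 47 were in the files and 34 were tested. With dexamethasone 6 of 34 passed as higher and 2 as lower, with LiCl 2 and 3, when LiCl was added to dexamethasone 2 and 4, and with both drugs against control 4 and 7. The shares of all tested genes that passed as higher and as lower were 5.45% and 5.49%, 4.71% and 5.90%, 3.82% and 4.78%, and 10.8% and 11.8% in the same order. With the replicate number as a block, 9 of the 34 passed with LiCl against control in place of 5. The medians of the 34 genes were 0.0052, 0.016, 0.018 and 0.018 on the log2 scale in these comparisons.

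The genes whose levels followed the hyaluronan genes most closely were found by Pearson correlation of log2 CPM over the 12 libraries among the 12602 tested genes. The 12 points share 4 group means, so these values describe the pattern and carry no p. Cd44 was most like Anxa8 (r = 0.98), Atp6v1e1 (0.96) and Sc5d (0.95). Anxa8, which encodes an annexin, rose over the groups from 76.6 ± 3.89 CPM in control through 106 ± 10.3 with dexamethasone and 118 ± 9.70 with LiCl to 183 ± 22.2 with both drugs (SD, n = 3), the order of Cd44 with smaller steps. Hapln1 was most like Fem1c (r = 0.97), Myo6 (0.95) and Wwp1 (0.95), Vcan like Runx1 (0.95), Cxxc4 (0.94) and Disc1 (0.93), and Has2 like Jak1 (0.91) and Klf12 (0.88). Runx1, which encodes a transcription factor of blood and skeletal cells, fell from a mean of 25.5 ± 5.98 CPM in control to 13.7 ± 1.79 CPM with both drugs. Between members, Has1 correlated with Has3 (r = 0.76) and Cd44 (0.74) and inversely with Hyal2 (-0.86), and Cd44 inversely with Vcan (-0.77).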

How the data were processed

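Poly(A) RNA of 12 pools was sequenced from strand-specific libraries. The authors deposited raw counts per gene symbol, made with HTSeq-count from Subread alignments that Picard had cleared of duplicates. Versions and the strand setting of counting are not given in the sources used here. The submitters' processing notes name a human build (hg19, GRCh37) for these rat libraries, so no coordinates were drawn from the counts. Discarding duplicates may compress abundant transcripts such as Hapln1. A deposited table of the authors' own comparisons (fold changes and p-values) was not used.

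Genes that reached 60 counts in 2 or more libraries were fitted with edgeR 4.0.16 (TMM, quasi-likelihood F-test, limma 3.58.1, R 4.3.3), condition as the only term, and p was adjusted over all of them. SEs are the log2 change divided by the square root of F. Plots used matplotlib 3.10.9 and pandas 2.3.3 in Python 3.11.15.

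The labels give replicate numbers 1 to 3 in each group, and the paper describes consecutive experiments in which the bones of each were spread over the 4 groups, with each pool from 1 of 3 rats, without tying the numbers to them. Deviations of same-numbered pools correlated at 0.19 to 0.31 (LiCl and control), 0.20 to 0.52 (both drugs and dexamethasone) and 0.13 to 0.26 (both drugs and control), and at 0.0074 to 0.12 for dexamethasone and control. Because all pairs of the first 3 exceeded 0.1, the fit with the replicate block is printed beside results of members there whose call it changes. Single calls and list counts of the other pathway genes are given without the block. The tests themselves carry no block. The p-values measure the spread between pools.

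Alternatives were RLE scaling, DESeq2 1.42.0, edgeR's filterByExpr, no count filter, a fold minimum of 2, the replicate block, only the groups compared, and leaving out each library. For the other pathway genes only the number passing was followed, and no library was left out. Their single calls, some near the threshold, therefore carry no such check. The rule for naming took all members, up to 3 other pathway genes per comparison with the smallest adjusted p, and the 3 genes most like a member, of which 1 is not reported here. Others are said to be chosen after their values were seen. The members, lists and motifs were chosen with earlier results of these data known. Listed genes under older symbols were matched through RefSeq synonyms.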

Additional observations from a re-analysis of the deposited data

How the results depend on the processing

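Of 801 values of single genes under the alternatives, 758 kept their direction and side of the threshold, 19 lost a call, 12 gained one and 12, none of them called, changed sign. All sign changes came from leaving out 1 library. Over those fits the log2 change ranged from -0.017 to 0.40 for Has3 and -0.12 to 0.085 for Hyal2 with dexamethasone, from -0.35 to 0.068 for Hyal1 with LiCl, from -0.086 to 0.042 for Ugdh with both drugs against dexamethasone, and from -0.30 to 0.12 for Hyal1 with both drugs against control. The interaction ranged from -0.32 to 0.10 for Has3, -0.077 to 0.13 for Hyal2 and -0.32 to 0.043 for Vcan. The numbers of hyaluronan genes that passed were 2 with dexamethasone, 2 with LiCl, 2 with both drugs against dexamethasone and 4 with both drugs against control. Leaving out 1 library gave 2 to 2, 1 to 3, 1 to 3 and 2 to 5 (and 0 to 0 for the interaction). With a fold above 2 required as well they were 0, 1, 1 and 1, where Cd44 was the gene left in the last 3. The 0 is set by that minimum, since 2 members had an unadjusted p under 0.05 with edgeR and the same 2 passed without the minimum with DESeq2. In a fit of only the groups compared, 1 gene passed with dexamethasone. For the other pathway genes that fit gave 5 with dexamethasone in place of 8 and 3 with LiCl in place of 5. A fold above 2 left 0, 0, 0 and 1 of them in the 4 comparisons. The replicate block changed no call of a member other than those of Vcan (-0.41, LiCl against control) and Hyal2 (-0.27, both drugs against control), and the numbers of members that passed with the block were 2, 3, 2 and 5. Where the cause of a lost or gained call is not named, the cause was not tested. Depth limits Has3 and Tnfaip6 most, at 27 to 82 and 17 to 89 counts per library.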
